A study of Mus musculus with 2 samples.

Results

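The genes described here are 40 genes of the extracellular matrix (ECM), among 32285 genes counted in tumor cells of NMM, an NRAS-mutated mouse melanoma line. They were chosen by symbol: 6 fibrillar collagen chains, 4 chains of collagens VI and XII, 8 basement membrane genes, 9 adhesive and matricellular glycoproteins, 4 proteoglycans, 3 lysyl oxidases, 5 metalloproteinases and inhibitors, and the collagen receptor subunit Itga1. Mgp, Prg4 and Itga1 had already been seen to differ between groups of these cells, with Mgp and Prg4 high in a group low in cell cycle transcripts. The cells came from 18 tumors that had grown in Rag-/- mice, which make no T or B cells of their own, and CFP+ tumor cells, called bystander cells by the submitters, were sorted from 1 pool of all tumors. The labels give 6 tumors each to Mix PBS, Mix + T and Ag-GAS + T, where PBS marks the control and T the tumors that T cells were given to, as far as the design text tells. No source used here ties a hashtag to a condition, so the conditions were not compared, and the data form 1 sample with no replicate.

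Hashtags are antibodies with a readable DNA tag, and each tumor carried a combination of them. Cells were barcodes with at least 5000 UMIs (unique molecular identifiers, each 1 captured transcript end) and at most 15% mitochondrial UMIs, which 1657 of 20917 barcodes met. Of these, 98 barcodes with 3 or more hashtags were left out as mixed droplets. The 1559 cells kept had a median of 44573 UMIs, with a range of 5049 to 176379. Among them 1498 cells fell into 18 of 45 possible pairs of tags, with 20 to 255 cells per pair. Each pair is read here as 1 tumor, by inference from the number of pairs. The labelled cell type was melanoma, but Tyr, Tyrp1 and Slc45a2, genes of pigment synthesis and melanosomes, had 0 UMIs. Of the other melanocytic genes listed, Sox10 and Dct had 3 UMIs each, Pmel 15 and Mlana 1. Slc24a5, Pax3 and Mitf had 48.2, 32.3 and 3.88 UMIs per 1000000 gene UMIs (CPM). The fibroblast list summed to 518 CPM, mostly Pdpn at 357 CPM. Of its markers, Pdpn had a UMI in 95.4% of cells, Twist2 in 84.5%, Cd34 in 53.1%, Pdgfrb in 33.2%, Pdgfra in 29.7% and Fap in 26.4%, while Thy1 stood at 0.354 CPM and Tcf21 at 0. The T cell list summed to 104 CPM, of which Trbc2 made up 103.6 CPM while Cd3e, Cd3g and Cd8a had 0 UMIs. A further 18473 barcodes with under 800 UMIs served as a reading of RNA outside cells.

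The extracellular matrix is a network of secreted proteins around cells. Fibrillar collagens form tensile fibers, collagen IV, laminins, nidogen and perlecan form the sheet called the basement membrane, and small proteoglycans such as biglycan and decorin bind the fibers. Lysyl oxidases cross-link collagen, metalloproteinases cleave matrix proteins, and TIMPs inhibit those enzymes. In skin and in tumors most fibrillar collagen comes from fibroblasts, and melanoma cells also make matrix proteins of their own, with SPARC and fibronectin among the best studied.

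Promoter sequences are shown for the members on which the later results turn. Col3a1 and Bgn, which encode collagen III and biglycan, had the highest correlation across cells of any 2 members on different chromosomes, and both were lower in cycling cells. Timp1, which encodes an inhibitor of metalloproteinases, was not. Col6a1 and Col6a2, neighbours on chromosome 10 that encode chains of collagen VI, had the highest correlation of all. Each stretch lies before the RefSeq transcript start on GRCm38.p6, is written 5′ to 3′ on the gene's strand and leaves out exon bases of GENCODE M21. Capitals mark letters matching TATAAA (the TATA box), CCAAT (the CCAAT box), GGGCGG (the GC box), TGANTCA (the AP-1 site) or TTCNNNGAA (the GAS element of interferon-gamma signaling) on either strand.
Col3a1 (chr1:45311288-45311537, plus strand): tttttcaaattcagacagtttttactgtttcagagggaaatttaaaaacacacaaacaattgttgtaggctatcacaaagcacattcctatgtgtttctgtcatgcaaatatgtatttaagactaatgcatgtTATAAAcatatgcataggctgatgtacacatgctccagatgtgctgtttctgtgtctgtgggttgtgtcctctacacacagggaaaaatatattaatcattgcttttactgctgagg
Bgn (chrX:73483351-73483600, plus strand): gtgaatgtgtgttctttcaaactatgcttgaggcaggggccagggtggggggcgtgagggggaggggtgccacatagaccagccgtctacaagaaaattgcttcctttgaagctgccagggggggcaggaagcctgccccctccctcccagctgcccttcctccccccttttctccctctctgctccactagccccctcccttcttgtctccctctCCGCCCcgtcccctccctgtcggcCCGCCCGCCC
Timp1 (chrX:20869916-20870165, plus strand): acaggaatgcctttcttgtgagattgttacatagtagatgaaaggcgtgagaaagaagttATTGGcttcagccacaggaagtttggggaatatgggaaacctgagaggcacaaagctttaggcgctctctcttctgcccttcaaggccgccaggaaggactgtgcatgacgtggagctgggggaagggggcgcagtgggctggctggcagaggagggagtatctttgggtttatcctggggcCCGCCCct
Col6a1 (chr10:76726169-76726294, minus strand): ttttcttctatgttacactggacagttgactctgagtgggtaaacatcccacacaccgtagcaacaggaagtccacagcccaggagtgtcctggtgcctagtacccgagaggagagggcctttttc
Col6a2 (chr10:76623631-76623880, minus strand): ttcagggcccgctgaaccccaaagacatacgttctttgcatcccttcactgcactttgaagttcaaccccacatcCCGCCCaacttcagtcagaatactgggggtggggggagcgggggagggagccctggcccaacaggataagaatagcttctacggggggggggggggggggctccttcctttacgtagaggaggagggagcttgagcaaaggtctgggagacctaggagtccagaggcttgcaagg

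The table of RefSeq promoters held 25 of the 40 members, and the following shares refer to the 250 bases before a start. Col3a1 held TATAAA with its first base 117 bases before the start, and its printed stretch was 35.2% G and C. Only Thbs2 and Tnc among the other members held TATAAA, so 3 of 25 did, beside 12.4% of all 32851 windows. Bgn was richer in G and C, at 64.4%, and held 3 GC box matches, of which 2 overlap at the end next to the start. GGGCGG occurred in 17 of 25 members and in 32.7% of all windows, and CCAAT in 11 of 25 and 33.9%. TGANTCA was found in 1 of 25 members, Col6a1, in the exon bases not printed, and in 6.75% of all windows. TTCNNNGAA was found in 0 of 25 members and in 7.02% of all windows. These are matches of letters and were not examined as binding sites.

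Matrix genes made up a small and uneven part of the RNA of these cells. The 40 members summed to 413823 UMIs, or 5636 CPM (95% counting interval 5618 to 5653), beside 4237 CPM in the barcodes under 800 UMIs. Intervals on levels are exact Poisson intervals and cover counting error only, not differences between tumors. The 6 genes Sparc, Col3a1, Bgn, Fn1, Timp1 and Timp2 held 68.0% of the members' UMIs. At the other end 9 members were under 10 CPM, and Postn, Lum and Loxl2 had a UMI in fewer than 5% of cells. The libraries read transcript 3′ ends, so a UMI count is not scaled by gene length.

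**Figure D1:**
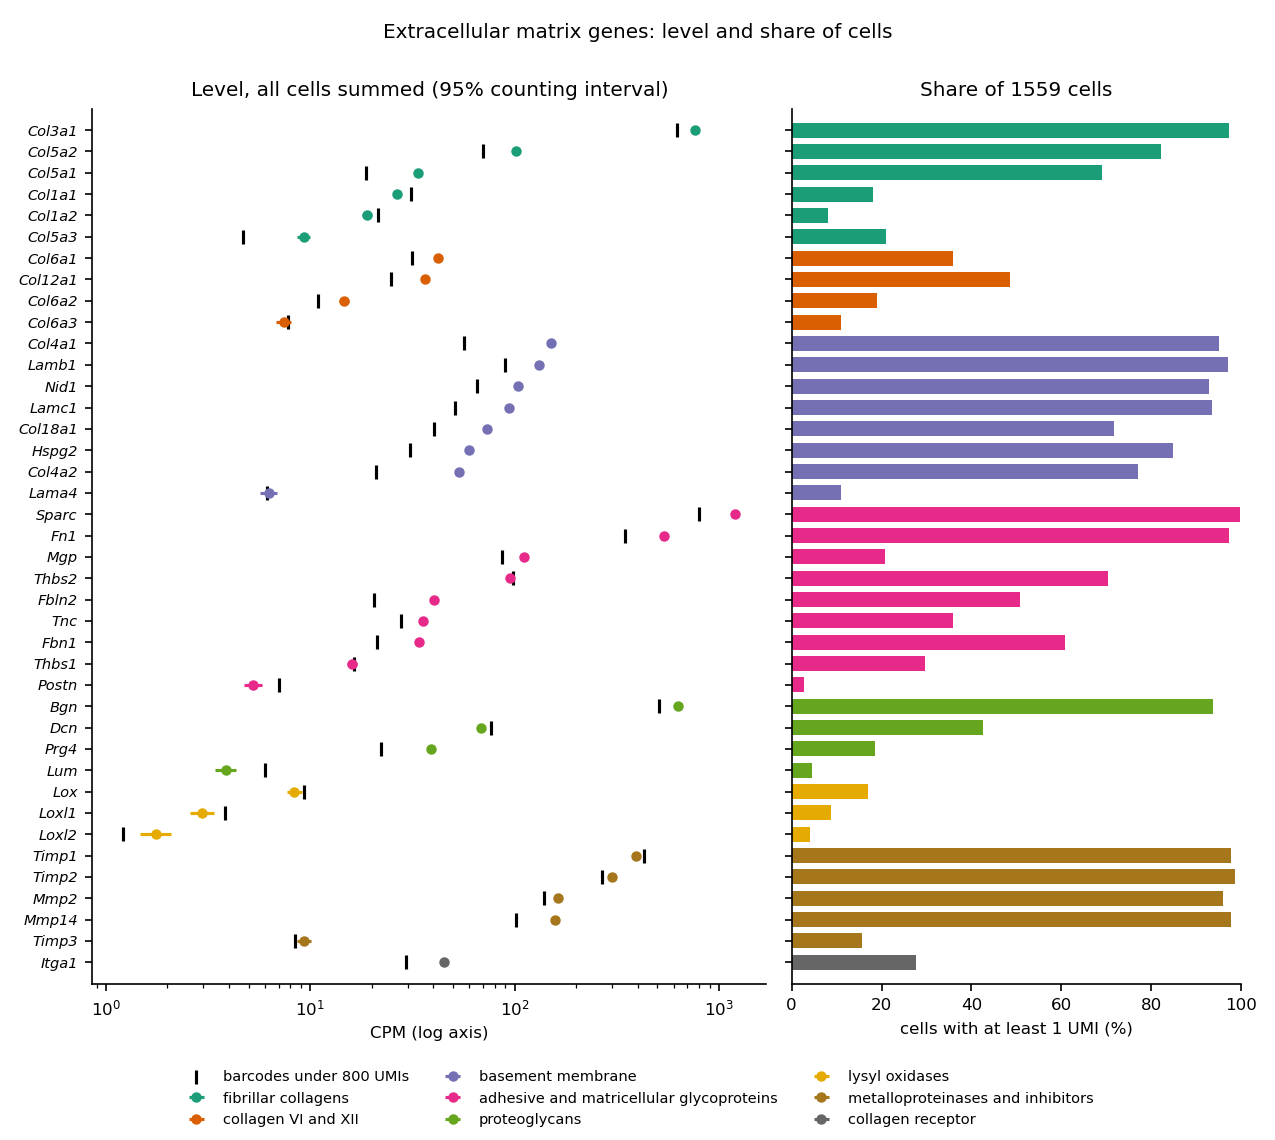
Level of each of the 40 matrix genes over all 1559 cells (left, CPM on a log axis, points with 95% counting intervals; black ticks show barcodes under 800 UMIs) and the share of cells with at least 1 UMI (right, percent), grouped by role. Sparc is highest at 1202 CPM and in 99.9% of cells, and Loxl2 is lowest at 1.76 CPM.

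Collagen III was the main fibrillar collagen. Col3a1 stood at 766 CPM (759 to 772) with a UMI in 97.4% of cells, and it held 80.1% of the UMIs of the fibrillar group. The collagen V chains that nucleate fibers followed, with Col5a2 at 102 CPM, Col5a1 at 33.5 CPM and Col5a3 at 9.30 CPM. Collagen I, which in most connective tissue is the more abundant fibrillar collagen, was low: Col1a1 stood at 26.5 CPM in 18.2% of cells and Col1a2 at 19.0 CPM in 8.15% of cells. Both were below their level outside cells, at 31.0 and 21.4 CPM.

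Only 3 cells carried most of the Col1a2. They had 760, 228 and 202 Col1a2 UMIs, and the next highest cell had 6. They made up 0.192% of cells and held 85.3% of Col1a2 UMIs, 74.4% of Postn, 46.2% of Col1a1, 34.1% of Loxl2, 13.2% of Col6a3 and 2.33% of Col3a1. Their tag pairs were HTO2 and HTO8, HTO1 and HTO9, and HTO3 and HTO9, with 48061, 29858 and 5124 UMIs in the cell. All 14 UMIs of the fibroblast marker Mfap5 and 20 of the 26 UMIs of Thy1 lay in these cells, which had 0 UMIs of Pax3, 1 of Slc24a5, 1 of Fap and 42 of Pdgfra, and none of the UMIs of Mgp or Prg4. Of the other fibroblast markers, the 3 cells had 217 CPM of Pdpn, 12.0 CPM of Twist2 and 24.1 CPM of Cd34, beside 357, 61.4 and 55.1 CPM over all cells, and 265 CPM of Pdgfrb and 96.3 CPM of Dpt, beside 16.1 and 3.57 CPM. Pi16, Clec3b and Tcf21 had 0 UMIs in them. Without these 3 cells, a set chosen after seeing the values, Col1a2 stood at 2.80 CPM (2.43 to 3.21), Col1a1 at 14.3 CPM and Postn at 1.35 CPM, while Col3a1 stood at 749 CPM. The remaining 1556 cells thus had Col3a1 with very little Col1a2.

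Among collagens VI and XII, which link fibers to their surroundings, Col6a1 was highest at 42.0 CPM and Col6a3 lowest at 7.41 CPM, with Col12a1 at 36.4 CPM and Col6a2 at 14.6 CPM. Basement membrane genes were spread over many cells. Col4a1, a collagen IV chain, was highest at 151 CPM in 95.1% of cells, followed by the laminin chain Lamb1 at 132 CPM, nidogen Nid1 at 104 CPM, the laminin chain Lamc1 at 93.9 CPM, Col18a1 at 73.2 CPM, the perlecan gene Hspg2 at 60.1 CPM and Col4a2 at 53.4 CPM. Lama4, a laminin alpha chain, was lowest at 6.25 CPM in 11.0% of cells. Col4a1 had the highest level of all members relative to RNA outside cells, at 2.66 times, with Col4a2 at 2.53 times. The median member stood at 1.34 times, and the median of genes found in 5% of cells or more at 1.17 times.

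Sparc, a collagen-binding glycoprotein, was the highest member at 1202 CPM (1194 to 1209). The fibronectin gene Fn1 followed at 540 CPM in 97.2% of cells. Mgp, which encodes an inhibitor of calcification, averaged 111 CPM, but only 20.8% of cells had a UMI of it. The thrombospondin genes Thbs2 and Thbs1 stood at 94.8 and 16.0 CPM, the fibulin gene Fbln2 at 40.5 CPM, the tenascin C gene Tnc at 35.5 CPM and the fibrillin gene Fbn1 at 34.2 CPM. Postn, which encodes periostin, was the lowest glycoprotein gene at 5.26 CPM.

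Biglycan was the main proteoglycan, with Bgn at 634 CPM in 93.8% of cells. Decorin (Dcn) stood at 68.4 CPM, lubricin (Prg4) at 39.2 CPM in 18.6% of cells, and lumican (Lum) at 3.85 CPM. Among lysyl oxidases Lox was highest at 8.38 CPM, with Loxl1 at 2.96 CPM and Loxl2 at 1.76 CPM. The metalloproteinase inhibitors Timp1 and Timp2 stood at 393 and 300 CPM, the gelatinase Mmp2 at 164 CPM, the membrane-bound Mmp14 at 158 CPM and Timp3 at 9.34 CPM. Itga1, the alpha subunit of a collagen-binding integrin, stood at 45.1 CPM in 27.6% of cells. In 11 of the 40 members the level in cells did not exceed that outside cells, among them Timp1 at 0.910 times, Dcn at 0.895 times and Thbs2 at 0.967 times. The share of all genes for which this holds was not counted, so the 11 are not read as a trait of matrix genes.

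Several members were concentrated in few cells. To compare spread at equal depth, 1423 cells were thinned to 20000 UMIs each, and the share of a gene's UMIs held by the 10% of cells highest in it was taken. Of 28 members with at least 20 CPM, 9 had at least 50% of their UMIs in these top cells, beside 6.16% of all genes at that level. Col1a1 is in both counts only through the 3 cells rich in Col1a2, as it stood at 14.3 CPM without them. Mgp was the extreme with 98.2%, and its highest cell had 424 of 20000 UMIs while the median cell had 0. Prg4 had 96.0%, Col1a1 93.0%, Itga1 88.4%, Dcn 77.9%, Tnc 76.6% and Col6a1 71.8% in their top cells. Sparc, Mmp14 and Lamb1 lay at the even end with 25.2%, 24.8% and 26.1%. In the median member the share was 39.96%, against 33.95% in the median gene of at least 20 CPM.

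Matrix genes took a larger share of the RNA in cells low in cell cycle transcripts. Each cell was scored by the mean log-normalized level of S phase and G2/M genes after thinning, and cells were ranked into 4 classes of 356, 356, 356 and 355 cells, the lowest of which was set against the highest. The 40 members summed to 9191, 7034, 4362 and 4348 CPM from the lowest to the highest class, a ratio of 2.11 between the ends. In 17 of 17 tag pairs with at least 20 thinned cells the sum was higher in the cells scoring below the pair's middle score. Without Mgp, Prg4 and Itga1, seen earlier to differ between groups of these cells, the sum went from 8561 to 4302 CPM. That ratio was 1.99, and this sum too was higher in the low-scoring cells of 17 of 17 tag pairs. Of the 37 members found in 5% of cells or more, 23 were at least 2-fold higher in the lowest class, beside 7.57% of the 10988 genes compared, and 0 were 2-fold higher in the highest class, beside 9.36%. The 23 include Mgp, Prg4 and Itga1, for which a difference was known beforehand. The median ratio was 2.85 for the members and 0.9504 for all genes compared. With 1 sample there is no test of these differences.

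**Figure D2:**
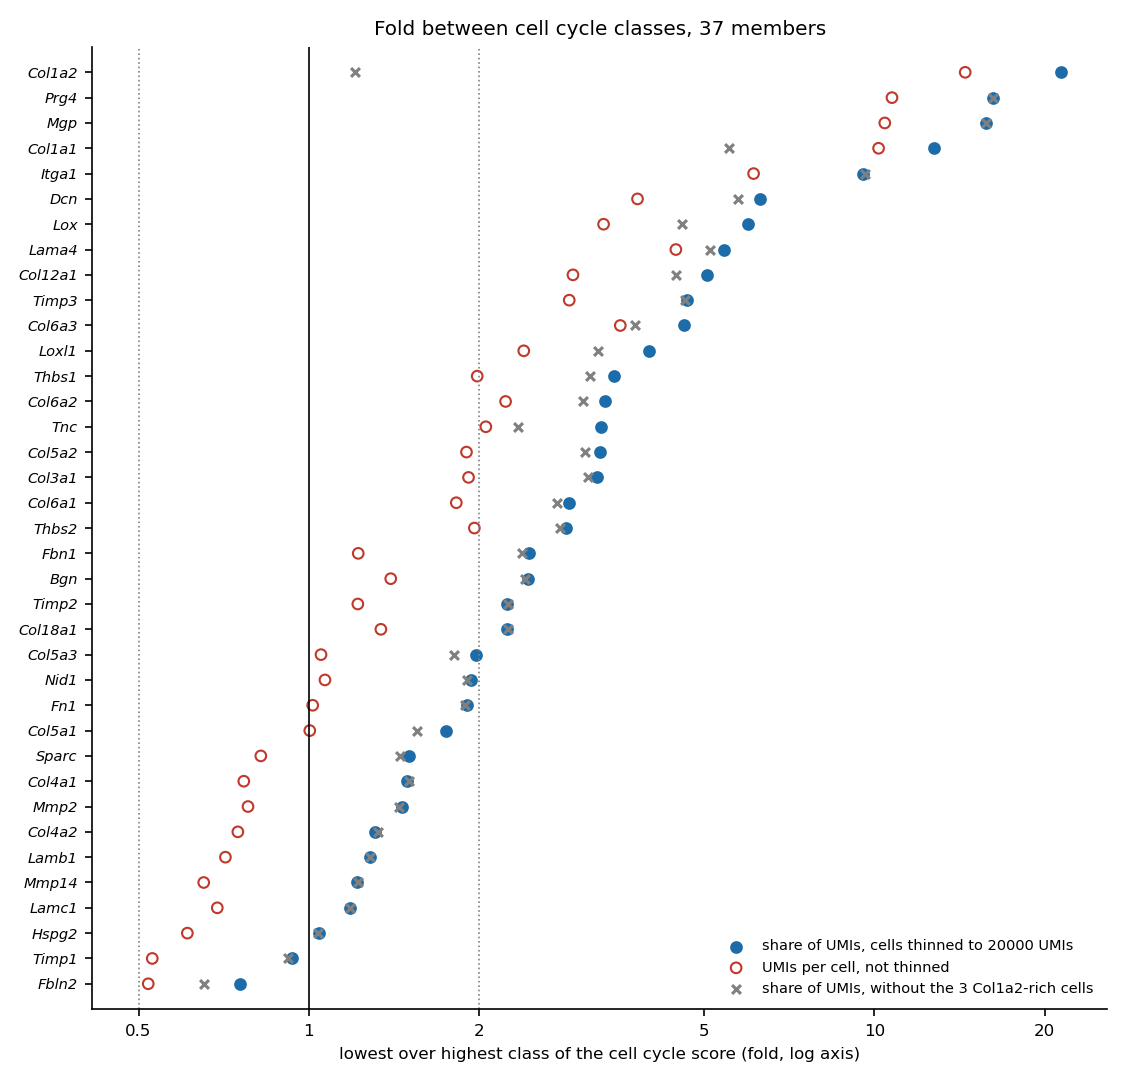
Ratio of the lowest to the highest class of the cell cycle score (log axis) for 37 members, as a share of thinned UMIs (filled blue), as UMIs per cell without thinning (open red) and as a share without the 3 cells rich in Col1a2 (grey crosses); dotted lines mark 2-fold. Prg4 and Mgp lie near 16 on the share scale, Timp1 and Fbln2 lie below 1, and Col1a2 moves from 21.4 to 1.21 without the 3 cells.

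Among fibrillar collagens, Col3a1 stood at 1557, 1134, 445 and 482 CPM in the 4 classes, 3.23-fold higher in the lowest, and was higher in the low-scoring cells of 17 of 17 tag pairs. Col5a2 went from 199 to 60.9 CPM, a ratio of 3.27. Col5a1 and Col5a3 differed less, with ratios of 1.75 and 1.98. Col1a1 went from 77.3 to 6.06 CPM, a ratio of 12.8 that was 5.54 without the 3 cells rich in Col1a2. Of those cells 2 were deep enough to enter the thinned set. Col1a2 had a ratio of 21.4, but it was higher in the low-scoring cells of only 7 of 17 tag pairs, and without the 3 cells the ratio was 1.21. All 4 genes of collagens VI and XII passed 2-fold, with ratios of 2.88 for Col6a1, 3.33 for Col6a2, 4.61 for Col6a3 and 5.05 for Col12a1.

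The 8 basement membrane genes summed to a ratio of 1.496 and the 5 metalloproteinases and inhibitors to 1.43. Of the basement membrane genes, Lama4 at 5.42 and Col18a1 at 2.24 passed 2-fold, and the other 6 did not. Nid1 stood at 1.93, Col4a1 at 1.49, Col4a2 at 1.31, Lamb1 at 1.28 and Lamc1 at 1.18. Hspg2 had 59.1 CPM in the lowest class and 56.8 CPM in the highest, with intervals of 53.6 to 65.1 and 51.4 to 62.6 that overlapped.

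Mgp had 380 CPM in the lowest class, 192 in the next, then 23.7 and 24.1 CPM, a ratio of 15.8 between the ends. Thbs1 at 3.46, Tnc at 3.29, Thbs2 at 2.85 and Fbn1 at 2.46 also passed 2-fold. Without the 3 cells the ratio of Tnc was 2.34. Fn1 at 1.90 and Sparc at 1.502 did not pass. Fbln2 ran the other way, with 32.6 CPM in the lowest and 43.1 CPM in the highest class, and was higher in the high-scoring cells of 13 of 17 tag pairs. Postn had 20.1 CPM in the lowest class, which was 1.97 CPM without the 3 cells. All 3 proteoglycans with enough cells passed 2-fold: Prg4 went from 112 to 6.90 CPM (16.2-fold), Dcn from 184 to 29.3 CPM (6.28-fold) and Bgn from 1188 to 487 CPM (2.44-fold). Lum, in fewer than 5% of cells, had 11.9 and 1.97 CPM.

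Lox and Loxl1 had ratios of 5.98 and 3.99, which were 4.57 and 3.24 without the 3 cells, and Loxl2 had 4.35 and 1.55 CPM in the end classes, with 0.421 CPM in the lowest without those cells. The TIMP genes split. Timp3 at 4.65 and Timp2 at 2.24 were higher in the lowest class, whereas Timp1 stood at 335, 346, 455 and 359 CPM over the classes, highest in the third. Mmp2 at 1.46 and Mmp14 at 1.22 differed little. Itga1 went from 139 to 14.5 CPM, a ratio of 9.56, and was higher in the low-scoring cells of 17 of 17 tag pairs.

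The classes also differed in size and in other transcripts. Before thinning, the cells had a median of 33720 UMIs in the lowest class and 65603 in the highest. The interferon-gamma response list stood at 18786, 12454, 11810 and 10465 CPM, the fibroblast list at 471, 447, 580 and 472 CPM, and the macrophage list at 2.53, 1.12, 10.5 and 33.0 CPM. Within the fibroblast list, Pdgfra stood at 28.4 CPM in the lowest and 8.45 CPM in the highest class, Pdgfrb at 35.0 and 8.59 CPM, Fap at 28.9 and 6.62 CPM and Dpt at 9.55 and 2.11 CPM. Pdpn, which made up most of that list, stood at 257 and 332 CPM, with Twist2 at 64.5 and 52.0 CPM and Cd34 at 45.5 and 62.0 CPM. Median mitochondrial shares lay between 2.47% and 2.75%. The part of cell size, of the interferon-gamma list and of the fibroblast markers in the share of matrix transcripts was not tested.

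Counted per cell instead of as a share, the members' summed UMIs were close to level between the classes. The mean cell had 320 member UMIs in the lowest class, 280 and 239 in the middle ones and 273 in the highest, a ratio of 1.17. Over all genes the mean cell had 36086 UMIs in the lowest and 66135 in the highest class. By this measure 14 of 37 members were still at least 2-fold higher in the lowest class, beside 1.81% of genes, and 0 were 2-fold higher in the highest, beside 45.2%. The median ratio per cell was 1.82 for the 37 members and 0.524 for all genes compared. The 14 were Mgp at 10.4, Prg4 at 10.7, Itga1 at 6.11, Col1a1 at 10.2, Col1a2, Lama4, Dcn, Col6a3, Lox, Col12a1, Timp3, Loxl1, Col6a2 and Tnc. Col3a1 had 52.7 UMIs per cell in the lowest and 27.5 in the highest class, a ratio of 1.92. Without the 3 cells rich in Col1a2, 11 members passed in the lowest class, with Col1a2 at 0.590, Tnc at 1.34 and Loxl1 at 1.75, and Fbln2 passed in the highest at 0.464. The shares of all genes were not counted without those cells. With those cells kept, 10 members had fewer UMIs per cell in the lowest class, with ratios from 0.520 for Fbln2 and 0.529 for Timp1 to 0.823 for Sparc. The share of all genes with fewer was not counted, but the median gene, at 0.524, had fewer.

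Pearson's correlation with the cell cycle score used all cells in place of the end classes. It was computed over 1366 thinned cells in tag pairs, after each pair's mean was subtracted, and describes cells of 1 library, with no p-value. Of the 37 members, 14 had r of -0.2 or lower, beside 3.04% of genes compared, and 0 had r of 0.2 or higher, beside 7.94%. The lowest were Col3a1 at -0.45, Col5a2 at -0.39, and Timp2 and Bgn at -0.38. Col1a2 had r of -0.04. Timp1 and Fbln2 were the members with r above 0, at 0.12 and 0.10.

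From cell to cell within a tag pair, some of the same genes tracked the interferon-gamma response list, a set of genes induced by that T cell cytokine. Within tag pairs 7 of 37 members had r of at least 0.2 with the list's score, beside 3.08% of genes, and 0 had r of -0.2 or lower, beside 2.7%. They were Col3a1 at 0.40, Timp2 at 0.31, Sparc at 0.30, Thbs2 at 0.27, Bgn and Col5a2 at 0.25, and Fbn1 at 0.22. Across all cells, without subtracting pair means, 4 members passed, beside 3.27% of genes: Col3a1 at 0.23, and Timp2, Sparc and Thbs2 at 0.27, 0.27 and 0.23. For Bgn and Col5a2 the correlation across all cells was 0.02 and 0.00. Over the 352 tag-paired cells of the lowest cell cycle class alone, r was 0.36 for Col3a1, 0.26 for Sparc, 0.23 for Bgn, 0.21 for Timp2 and 0.17 for Col5a2. Thbs2 at 0.199 and Fbn1 at 0.188 did not reach 0.2 there, whereas Col1a1 at 0.204 and Col4a1 at 0.2004 did. The share of all genes was not counted for that class. With the immediate early list, whose genes respond to dissociation and other stress, 0 members reached 0.2, beside 0.353% of genes, and Fn1 was highest at 0.17.

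Matrix genes varied together from cell to cell. Within tag pairs 177 of the 666 pairs formed by 37 members had r of at least 0.2, beside 0.261% of all gene pairs, and 62 had r of at least 0.3, beside 0.0622%. Across all cells 192 pairs reached 0.2, beside 0.28%. Correlations in thinned counts also depend on level, and the median member had 43.6 CPM against 21.1 CPM for all genes found in 5% of cells or more. Without the 3 cells rich in Col1a2, the count of member pairs with r of at least 0.2 was 142. The share of all gene pairs was not counted without those cells.

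**Figure D3:**
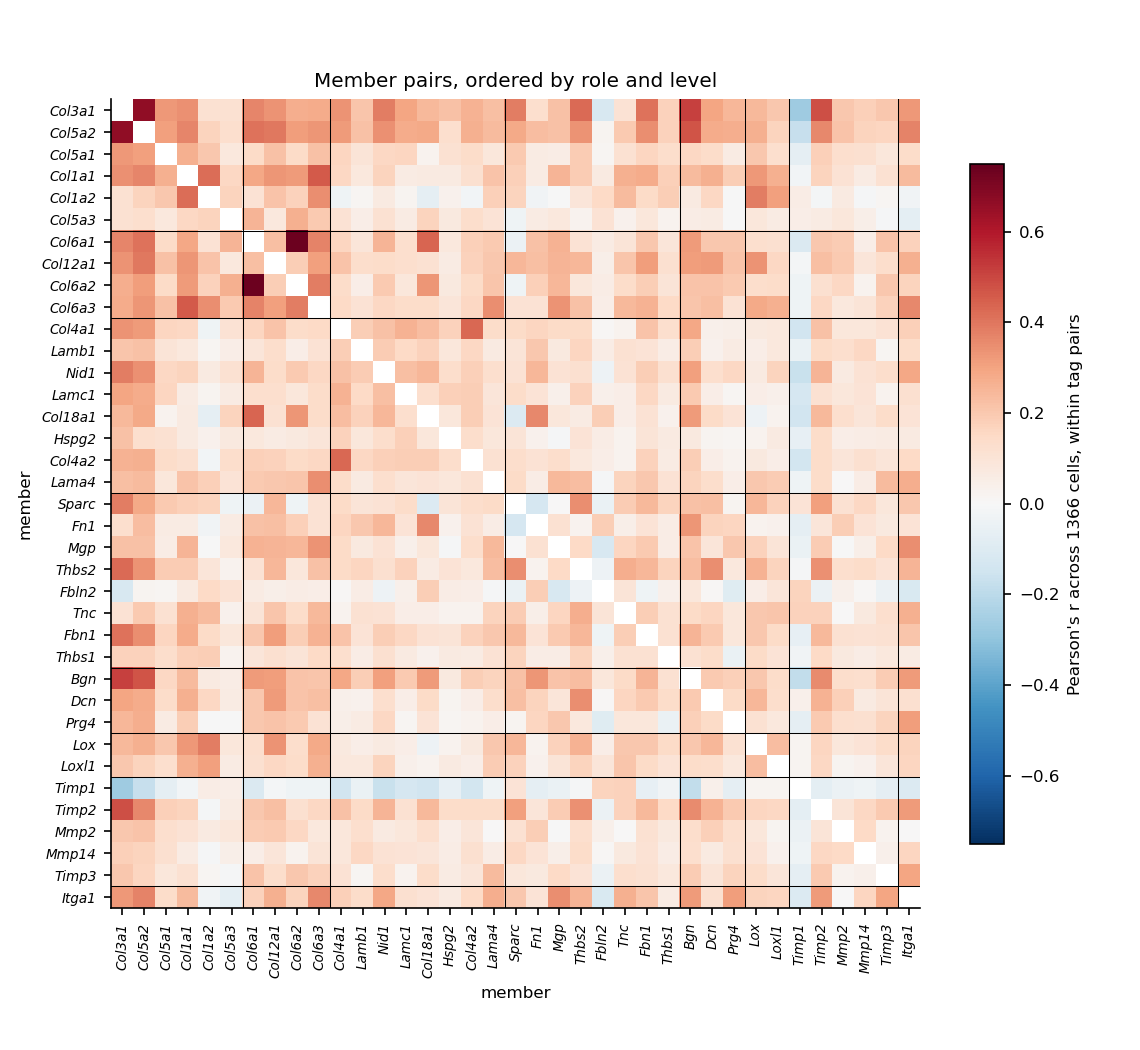
Pearson's r between 37 members across 1366 cells thinned to 20000 UMIs, with tag pair means subtracted, members ordered by role (black lines) and level; red is positive and blue negative. Col6a1 with Col6a2 is the highest at 0.74, the rows of Col3a1 and Col5a2 are red across most roles, and the row of Timp1 is mostly blue.

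Both of the highest pairs were neighbours in the genome (GRCm38). Col6a1 (chromosome 10, 76708792 to 76726168) and Col6a2 (76595762 to 76623630) lie 85.2 kb apart on the same strand and had r of 0.74. Col3a1 (chromosome 1, 45311538 to 45349706, plus strand) and Col5a2 (45374321 to 45503282, minus strand) lie 24.6 kb apart with their 3′ ends facing, and had r of 0.66. Col4a1 and Col4a2, whose starts overlap head to head on chromosome 8 (11198423 to 11312826 and 11312805 to 11449287), had r of 0.43. These 2 genes overlap only from 11312805 to 11312826, at their 5′ starts, whereas the libraries read transcript 3′ ends. Whether the counting used strand is not given in the sources used here, so only reads within that short stretch would be uncertain. In the lowest cell cycle class alone these 3 values were 0.71, 0.59 and 0.42.

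Pairs on different chromosomes came next. Col3a1 had r of 0.51 with Bgn and 0.49 with Timp2, Col5a2 had 0.47 with Bgn, and within the lowest cell cycle class these were 0.37, 0.26 and 0.36. Col6a1 had 0.44 with Col18a1, another chromosome 10 gene. Col5a2 had r of at least 0.2 with 26 members and Col3a1 with 25, Col12a1 with 21, and Col6a3 and Bgn with 18 each. Timp1, Fbln2, Thbs1 and Mmp14 had no partner at 0.2, and Mmp2 and Hspg2 had 1 each. Timp1 with Col3a1 was the lowest of all pairs at -0.27.

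The correlation of the 2 chains of collagen I rested on the 3 cells rich in Col1a2. Col1a1 and Col1a2 had r of 0.42 with them and 0.01 without them, and Col1a2 with Lox went from 0.38 to 0.06. Without them Col1a2 stood at 2.80 CPM with a UMI in 7.97% of cells. At that level shared variation could hardly be seen, so the low values do not show that it was absent. Col1a1 with Col6a3 stood at 0.46 with these cells and 0.33 without. Among roles, collagens VI and XII had the highest median r, at 0.34 over 6 pairs, and the single pair of lysyl oxidases, Lox and Loxl1, had 0.23 and was at 0.09 without the 3 cells. The median was 0.20 over 15 pairs of fibrillar collagens, 0.18 over 3 pairs of proteoglycans, 0.16 over 28 pairs of basement membrane genes and 0.12 over 28 pairs of adhesive and matricellular glycoproteins. Metalloproteinases and inhibitors had a median of 0.03 over 10 pairs, and 0 of them reached 0.2. Mgp and Itga1 had r of 0.35, Prg4 and Itga1 0.31, and Mgp and Prg4 0.20.

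Between tag pairs, the 40 members summed to between 4524 CPM (HTO2 and HTO5) and 7731 CPM (HTO4 and HTO8), a ratio of 1.71, with a median of 6080 CPM. Tag pairs with the interferon-gamma list at 15244 to 19717 CPM had sums of 4956 to 5630 CPM. Those with the list at 4656 to 6998 CPM had sums of 5584 to 7731 CPM, except HTO2 and HTO5. The part of the interferon-gamma response in these sums was not tested. Of 28 members with at least 20 CPM, 11 had a highest tag pair at least 3 times the lowest, beside 6.73% of genes at that level. Col1a1 is in both counts, but it stood at 14.3 CPM, under 20, without the 3 cells rich in Col1a2. The median ratio of single genes was 2.25 for these members and 1.64 for all genes of that level. No condition can be attached to a pair, and cells of 1 pair are not replicates, so these are values of single presumed tumors.

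**Figure D4:**
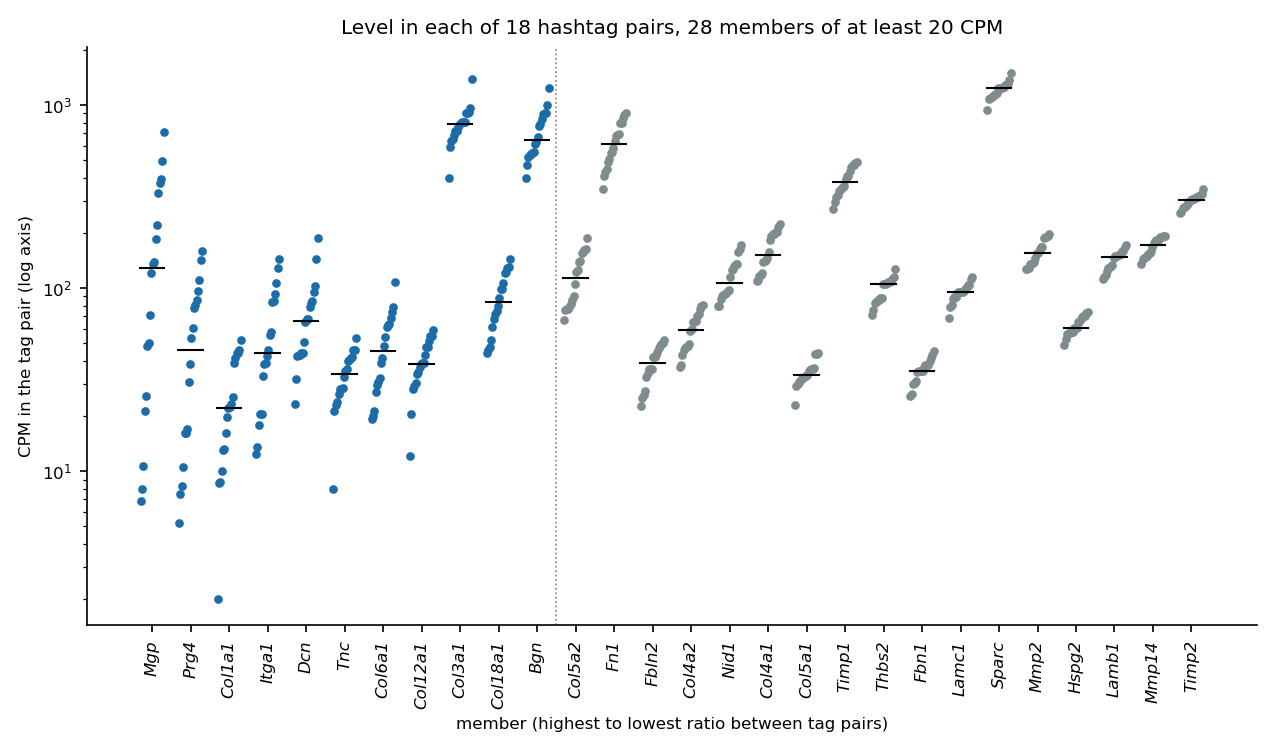
Level of 28 members in each of 18 tag pairs (points, CPM on a log axis, sorted within each member) with the median (black line), members ordered from the highest to the lowest ratio; blue marks a ratio of at least 3. Mgp spans 6.84 to 709 CPM, while Timp2, at the right, spans 256 to 348 CPM.

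Mgp ranged most, from 6.84 CPM (5.44 to 8.47) in HTO2 and HTO8 over a median of 129 CPM to 709 CPM in HTO3 and HTO7, a pair of 20 cells. It was also low in HTO1 and HTO9 at 7.97 CPM, HTO6 and HTO7 at 10.7 CPM, HTO7 and HTO10 at 21.2 CPM and HTO3 and HTO9 at 25.6 CPM, pairs of 109 to 156 cells. The interferon-gamma list stood at 16710 CPM in HTO2 and HTO8 and at 18334, 15244, 18079 and 19717 CPM in those 4 pairs in the same order. In HTO3 and HTO7, the pair highest in Mgp, the list stood at 6051 CPM, and HTO8 and HTO10 had 121 CPM of Mgp with the list at 17354 CPM. The part of the interferon-gamma response in the level of Mgp was not tested.

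Prg4 ranged from 5.20 CPM in HTO7 and HTO10 over a median of 45.8 to 159 CPM in HTO3 and HTO5. Itga1 ranged from 12.4 CPM in HTO8 and HTO10 over a median of 44.5 to 144 CPM in HTO4 and HTO8. The pair highest in Mgp, HTO3 and HTO7, had 38.4 CPM of Prg4 and 42.8 CPM of Itga1, both below their medians. Dcn ranged from 23.2 CPM in HTO5 and HTO7 over a median of 66.4 to 187 CPM in HTO1 and HTO2. HTO1 and HTO9 had 145 CPM of Dcn and 7.97 CPM of Mgp, and HTO3 and HTO7 had 79.0 CPM of Dcn and 709 CPM of Mgp.

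Col1a1 ranged from 2.00 CPM (4 UMIs) in HTO2 and HTO5 over a median of 22.2 to 52.3 CPM in HTO4 and HTO8. Tnc spanned a ratio of 6.63, Col6a1 5.62, Col12a1 4.92, Col3a1 3.49, Col18a1 3.26 and Bgn 3.12. Tnc was highest in HTO2 and HTO8, where 247 of its 646 UMIs lay in 1 of the cells rich in Col1a2. Its lowest pair had 8 UMIs, and without the 3 cells its ratio was 5.74. Col3a1 lay between 397 CPM in HTO2 and HTO5 and 1387 CPM in HTO4 and HTO8 with a median of 785 CPM, and its second highest pair had 964 CPM. The tag pair HTO4 and HTO8, of 36 cells, was highest in 13 of the 40 members, and HTO2 and HTO5, of 39 cells, was lowest in 11. The same was not counted over all genes, so these counts are not read as particular to matrix genes. Median depth was 35144 UMIs in HTO4 and HTO8, the lowest of the 18 pairs, and 52216 in HTO2 and HTO5, the highest, and the cell cycle lists stood at 6306 and 8254 CPM. The part of depth and cell cycle in their matrix levels was not tested. Over the 12 pairs of at least 50 cells, 6 members kept a ratio of 3, namely Mgp at 72.2, Prg4 at 30.5, Itga1 at 10.4, Dcn at 8.04, Col1a1 at 5.295 and Col6a1, and Col3a1 stood at 1.48. The share of all genes with that ratio was not counted for these 12 pairs. Col1a1 was highest among them in HTO2 and HTO8 at 45.9 CPM, where 467 of its 557 UMIs lay in 1 cell. HTO5 and HTO7 had 44.2 CPM of Col1a1.

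The narrowest ranges belonged to Timp2, from 256 over a median of 303 to 348 CPM (1.36 times), Mmp14, from 136 over 172 to 194 CPM (1.43 times), and Lamb1, from 113 over 148 to 171 CPM (1.52 times). Sparc spanned 945 to 1491 CPM and Fn1 347 to 901 CPM. Timp1, with 269 to 488 CPM, was lowest in HTO4 and HTO8, where Col3a1 was highest. By role, collagens VI and XII spanned a ratio of 4.13, fibrillar collagens 3.41, proteoglycans 2.62, basement membrane genes 1.65, and metalloproteinases and inhibitors 1.25.

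Genes outside the 40 that act on the matrix were read in the same way. Of 25 collagen folding and processing genes found in 5% of cells or more, 5 were at least 2-fold higher in the lowest cell cycle class by share of UMIs, beside 7.57% of all genes compared, and 1 in the highest, beside 9.36%. The prolyl isomerase gene Ppib was the highest of them at 1076 CPM and had a ratio of 1.22. The 5 were Tll1, a procollagen protease gene, at 7.10, the prolyl hydroxylase genes P3h2 at 4.65 and P4ha2 at 2.14, the isomerase gene Fkbp14 at 2.35 and the lysyl hydroxylase gene Plod1 at 2.06. The ratio of P3h2 rests on 28 UMIs in the lowest and 6 in the highest class. Pcolce2, an enhancer of procollagen cleavage, was 7.09-fold higher in the highest class, with 41.8 against 5.90 CPM.

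Of 16 detected genes among other matrix proteases and the plasminogen system, 8 were 2-fold higher in the lowest class, beside 7.57%, and 0 in the highest, beside 9.36%. The stromelysin gene Mmp3 was the highest at 569 CPM and went from 1140 to 364 CPM, a ratio of 3.13. Mmp13 at 5.60, Mmp9 at 5.27, Mmp19 at 4.04, Adamts5 at 3.67, Adamts1 at 2.82, Mmp10 at 2.49 and Adamts4 at 2.48 were the other 7. Of 17 detected genes of TGF-beta signaling, a main inducer of collagen genes, 5 were 2-fold higher in the lowest class, beside 7.57%, and 0 in the highest, beside 9.36%. They were Tgfbi at 5.06, Ltbp2 at 4.21, and the receptor genes Tgfbr3 at 2.95 and Tgfbr1 at 2.17, with Ccn1 at 2.70. Ltbp2 had only 38 UMIs in the lowest and 9 in the highest class. Ltbp1, the highest of that list at 94.96 CPM, had a ratio of 0.982.

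Of 10 other integrin genes detected, 1 was 2-fold higher in the lowest class, beside 7.57% of all genes compared, and 2 in the highest, beside 9.36%. Itgb5 was 2.27-fold higher in the lowest class, and the laminin receptor subunits Itga3 and Itga6 were 2.61-fold and 2.40-fold higher in the highest. Itgb1, which pairs with Itga1, stood at 327 CPM with a ratio of 1.03. Of 28 other collagen, laminin and nidogen genes only 7 were detected in at least 5% of cells, led by Col16a1 at 25.0 CPM, and 2 of them were 2-fold higher in the lowest class, beside 7.57%, Col4a5 at 8.73 and Col11a1 at 5.98, and 0 in the highest, beside 9.36%. Col4a5 had 70 UMIs in the lowest and 8 in the highest class.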

How the data were processed

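One gene expression library and 1 hashtag library of the pool were read with the 10x Genomics 3′ assay. The authors deposited raw UMI counts per gene and hashtag in each barcode, without normalization. Cell Ranger is named in version 6.1.2 per the file headers and in version 2.1.1, with GRCm38, per the submitters' processing notes. The barcode filter is not given in the sources used here. Both samples stayed without a group.

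A hashtag was called above the 0.99 quantile of a negative binomial fitted to its background cluster and at 1/5 or more of the cell's second tag, a limit set after seeing tag counts. Doublets within 1 tumor are not seen. Levels are summed UMIs per 1000000 gene UMIs, with exact Poisson intervals at 95%; a count of 0 was read as up to 3 counts. Cells were thinned without replacement to 20000 UMIs for scores, ratios and correlations, on log-normalized values (numpy 2.4.6, scipy 1.17.1). Calls are by size: 2-fold between cell cycle classes, 0.2 in r, 3 times between tag pairs. Genes had to be found in 5% of cells or more. The code was tested on simulated data. Members and lists were chosen with earlier results of these data known. Named genes were the highest and lowest of each role, those past 2-fold, those of the 5 highest pairs, and the 5 widest and 3 narrowest ranges; the rest are given more briefly. Alternatives varied the filters, hashtag rule, thinning, classes, correlation and single tag pairs.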

Additional observations from a re-analysis of the deposited data

How the results depend on the processing

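The summed list CPM of 5636 was 5591 CPM with a mitochondrial maximum of 10%, 6720 CPM as the mean of per-cell CPM, 7833 CPM without mitochondrial and ribosomal protein genes in the total, 5553 CPM with the hashtag cutoff alone and 5547 CPM without the 3 cells rich in Col1a2. These last 2 settings, UMIs per cell and the lowest cell cycle class alone were chosen after seeing the data. The count of members 2-fold higher in the lowest cell cycle class, 23, was 14 by UMIs per cell, and 11 by UMIs per cell without the 3 cells. Over the other settings it lay between 22 and 26, and between 23 and 24 when each tag pair was left out in turn, and no setting gave a member 2-fold higher in the highest class except UMIs per cell without the 3 cells, which gave 1, Fbln2. Member pairs with r of at least 0.2 numbered 177, and 62 with a threshold of 0.3. Members spanning 3 times between tag pairs numbered 11, 6 over pairs of at least 50 cells, and 8 to 11 when each pair was left out. In the lowest cell cycle class 1 member, against 0, reached r of 0.2 with the immediate early list. For single members and ratios of the list, 714 alternative values stayed within their counting interval or 1.5 times and 177 did not. Among these values 0 calls of the 37 members changed direction. Single members by UMIs per cell were not among them, and by that measure Col1a2 fell to a ratio of 0.590 without the 3 cells. Loxl2, in fewer than 5% of cells, went from a ratio of 2.81 to 0.272 without the 3 cells. The cause of these shifts was not tested. No paired analysis was possible because the labels give no replicates. With 1 pool, 1 library and no map from hashtags to conditions, neither conditions nor tumors can be tested. Depth limits members under 10 CPM, whose values in small tag pairs rest on few UMIs.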
